A study of Mus musculus with 8 samples.

Results

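The 10 genes described here encode the ligands and receptors of the vascular endothelial growth factor (VEGF) and angiopoietin systems. They were taken by symbol from the gene counts of the primary lung fibroblast (pFB) libraries, and all 10 were found among the 54532 entries of the table. The VEGF ligands are *Vegfa*, *Vegfb*, *Vegfc*, *Vegfd* and *Pgf*, the angiopoietins *Angpt1* and *Angpt2*, and the receptors *Flt1*, *Kdr* and *Tek*. RNAseq was performed on 8 libraries from untreated pFBs of female mice on a C57/black background, 4 from wild type mice (WT1 to WT4) and 4 from homozygous transgenic mice (HOMO1 to HOMO4). HOMO mice carry human IGFBP5 (hIGFBP5), inserted by CRISPR/Cas9 and expressed ubiquitously from the *Ef1a1* promoter. The age of the mice and how many of them stand behind the libraries are not given in the sources used here, and the p-values measure the spread between these libraries only. In what follows n counts libraries.

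VEGF ligands are secreted proteins that bind tyrosine kinase receptors on endothelial cells. Vegfa acts mainly through Kdr, also called VEGF receptor 2, while Flt1 (VEGF receptor 1) binds Vegfa, Vegfb and Pgf tightly, signals weakly and is also made in a soluble form that takes ligand away from Kdr. Vegfc and Vegfd act on lymphatic vessels through Flt4. Angpt1 activates the receptor Tek (Tie2) and steadies vessels, whereas Angpt2 competes with it in many settings and is released where vessels are remodelled. In the lung, fibroblasts and other stromal cells supply ligands, and the receptors belong mostly to the endothelium.

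Total counts ran from 17236521 to 29028769 in WT and from 19009027 to 31987790 in HOMO. A level of 3 counts was worth 0.0908 to 0.172 CPM (counts scaled to library size), a limit that covers counting error only. Some libraries were near-identical. The biological coefficient of variation was 4.71 to 7.65% for the pairs WT1 with WT2, HOMO1 with HOMO2 and HOMO3 with HOMO4. It was 30.1 to 56.5% for the 9 remaining pairs within a genotype. This leaves the equivalent of 3 WT and 2 HOMO units if each near-identical pair counts once. WT3 and WT4 carried the most macrophage and leukocyte marker RNA. The calls are therefore also given with these pairs summed and without WT3 and WT4. The last fit keeps only the near-identical WT1 and WT2 as WT, so its p-values do not measure the spread between WT units.

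Of the 8 testable genes, 3 were downregulated in HOMO pFBs. *Angpt2* fell 27.7-fold, *Flt1* 2.68-fold and *Vegfa* 2.27-fold, and no library of HOMO reached the lowest WT library for any of them. HOMO was compared with WT by edgeR's two-sided quasi-likelihood F test, with Benjamini-Hochberg adjustment over 14150 genes. Genes with an adjusted p under 0.05 that differed by more than 0.6 on the log2 scale were called. *Pgf* and *Tek* had too few counts to enter it. In the background of this comparison, 12.1% of all tested genes were called, 6.18% as lower and 5.94% as higher in HOMO, and the genotypes were without overlap in 13.4% of genes as lower and in 14.0% as higher. Against these shares, 3 of 8 tested members were called lower, the same 3 were without overlap, and 0 were called higher by edgeR, with 0 members higher at an unadjusted p under 0.05 and 0 called higher by DESeq2 or limma-voom. The log2 fold change was negative for 7 of the 8, with a median of −1.23 against −0.04 over all tested genes.

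These calls did not rest equally on the libraries. *Angpt2* was called with any 1 library left out. *Vegfa* lost its call without HOMO1 (edgeR adjusted p = 0.0525) or HOMO2 (edgeR adjusted p = 0.0534), and *Flt1* lost it without any library other than WT3 (edgeR adjusted p between 0.0512 and 0.121). With the near-identical libraries summed, edgeR called 0 of the members, with adjusted p of 0.235 for *Angpt2*, 0.347 for *Vegfa* and 0.376 for *Flt1*. For 4 members the unadjusted p was still under 0.05, as it was for 2057 of all 16130 tested genes. EdgeR called 0 of all these genes on the sums. On the same sums, DESeq2 called 2 members, *Angpt2* and *Pgf*, and 719 of 16716 over all genes. The fit without WT3 and WT4 had only the near-identical WT1 and WT2 as WT. Without WT3 and WT4, edgeR called 4 members, with a log2 fold change of −5.31 for *Angpt2* (edgeR adjusted p = 0.00178), −1.59 for *Flt1* (edgeR adjusted p = 0.0378), −1.27 for *Vegfa* and −1.24 for *Vegfc*. That fit called more genes in general, 3117 of 14912 tested, where edgeR on all 8 libraries called 1716 of 14150.

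**Figure D1:**
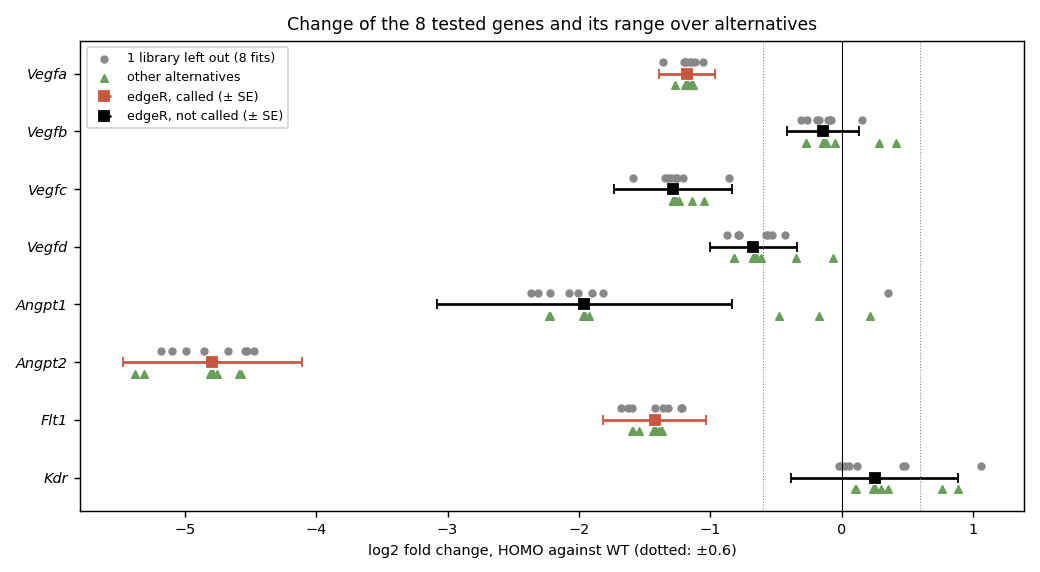
Log2 fold change of HOMO against WT (horizontal axis) for the 8 tested genes. Squares are the edgeR estimates with their standard errors as bars, red where called, gray circles the 8 fits with 1 library left out, and green triangles the other alternatives. *Angpt2* stays between −5.38 and −4.47, *Vegfa* between −1.36 and −1.05 and *Flt1* between −1.68 and −1.21 over all of them, while *Vegfb*, *Angpt1* and *Kdr* lie on both sides of 0.

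The RefSeq promoter windows (GRCm38.p6, from 250 bases before to 50 after the start) are shown for the downregulated ligand *Vegfa* and its receptor *Flt1*, the called genes that had one. Of the 10 genes, 8 had a window, and *Angpt1* and *Angpt2* had none. Given are the 250 bases before each start, 5′ to 3′ along the gene, for *Flt1* at chr5:147726012-147726261 on the minus strand and for *Vegfa* at chr17:46032378-46032627 on the minus strand. Capitals mark the GC box, GGGCGG, and the core of the hypoxia response element, ACGTG or GCGTG, on either strand.
Flt1: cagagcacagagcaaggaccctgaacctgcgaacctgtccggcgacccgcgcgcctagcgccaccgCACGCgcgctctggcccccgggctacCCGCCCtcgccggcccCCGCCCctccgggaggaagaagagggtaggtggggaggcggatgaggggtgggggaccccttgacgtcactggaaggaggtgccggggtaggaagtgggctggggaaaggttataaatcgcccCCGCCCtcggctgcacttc
Vegfa: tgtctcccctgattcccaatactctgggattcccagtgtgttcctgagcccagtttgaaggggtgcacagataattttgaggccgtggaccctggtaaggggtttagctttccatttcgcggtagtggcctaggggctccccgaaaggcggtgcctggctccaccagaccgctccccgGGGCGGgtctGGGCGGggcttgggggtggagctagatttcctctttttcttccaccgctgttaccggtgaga
The *Flt1* stretch held 3 GC boxes and 1 hypoxia core, and the *Vegfa* stretch 2 GC boxes and 0 hypoxia cores. A second *Vegfa* window, at an internal start, held 2 hypoxia cores and 1 GC box. Among 32851 such windows, 35.7% held a GC box and 43.8% a hypoxia core. A match describes letters only. The AP-1 site TGANTCA, found in 7.81% of all windows, was in none of the windows of the members.

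*Vegfa* (ENSMUSG00000023951, chromosome 17 from 46016993 to 46032369, minus strand, GRCm38), the principal driver of vessel growth, had counts of 6866, 7957, 3660 and 11061 in WT1 to WT4 and 3227, 4715, 3053 and 3225 in HOMO1 to HOMO4. Scaled to library size, this was 386, 341, 210 and 428 CPM in WT and 144, 143, 155 and 162 CPM in HOMO. WT3 was the lowest WT library and still lay above every HOMO library, and the HOMO libraries were close to each other. The means were 341 ± 94.5 in WT and 151 ± 9.10 in HOMO (CPM ± SD, n = 4), a log2 fold change of −1.18 (SE 0.21, edgeR adjusted p = 0.0123). Whether fewer cells made *Vegfa* or each cell made less cannot be told apart in these bulk libraries. Without WT3 and WT4, which hold most of the macrophage marker RNA, its log2 fold change was −1.27 (edgeR adjusted p = 3.98e-04). That p counts the near-identical WT1 and WT2 as separate libraries.

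*Vegfd* (X chromosome from 164373378 to 164402650, plus strand), a ligand of Flt4 that is matured by proteolysis, had the highest level of the 10 genes. Its levels were 528, 718, 1171 and 1383 CPM in WT1 to WT4 and 736, 729, 415 and 505 CPM in HOMO1 to HOMO4. WT1 and WT2 lay within the range of HOMO, and only WT3 and WT4 stood above it. The log2 fold change of −0.67 (SE 0.33, edgeR adjusted p = 0.197) did not pass the test, and without WT3 and WT4 it was −0.07 (edgeR adjusted p = 0.870).

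*Vegfb* (chromosome 19 from 6982473 to 6987651, minus strand), a ligand of Flt1 linked to metabolism more than to vessel growth, was measured at 42.6, 49.8, 106 and 72.9 CPM in WT and 66.1, 68.3, 54.2 and 57.6 CPM in HOMO. The HOMO libraries all fell inside the range of WT. Its log2 fold change was −0.14 (SE 0.27, edgeR adjusted p = 0.758) and changed sign to 0.16 without WT3 alone and to 0.41 without WT3 and WT4 together (edgeR adjusted p = 0.0527).

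*Vegfc* (chromosome 8 from 54077606 to 54187096, plus strand), the main growth factor of lymphatic vessels, was at 24.6, 20.5, 41.4 and 6.81 CPM in WT and 9.41, 10.5, 8.11 and 10.3 CPM in HOMO. WT1, WT2 and WT3 lay above all of HOMO and WT4 lay below all of it. Over the 8 libraries the log2 fold change was −1.28 (SE 0.45, edgeR adjusted p = 0.0902). Without WT4 it was −1.59 and passed (edgeR adjusted p = 0.0115), without WT3 it was −0.85 (edgeR adjusted p = 0.160), and without both it was −1.24 (edgeR adjusted p = 0.00248), so the call depends on the libraries kept. On all 8 libraries it also depended on the fit, since DESeq2 (adjusted p = 0.0313) and limma-voom with library weights (adjusted p = 0.00139) called *Vegfc* lower.

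*Pgf* (chromosome 12 from 85166635 to 85177790, minus strand), placental growth factor and a ligand of Flt1, had 4, 2, 62 and 44 counts over WT1 to WT4 and 2, 4, 2 and 1 over HOMO1 to HOMO4. Only WT3 (3.56 CPM) and WT4 (1.70 CPM) stood above the level of a few reads. The difference of −1.30 CPM, HOMO minus WT, had p = 0.114 in the exact two-sided permutation test over 70 assignments of the libraries, whose smallest possible p is 0.0286, while DESeq2, which keeps such low genes, called *Pgf* lower. The summed level of 8 macrophage and leukocyte markers was 131, 160, 1971 and 1151 CPM in WT1 to WT4 and between 58.0 and 194 CPM in HOMO, so the same 2 libraries stood out for *Pgf* and for these markers, and the part of such cells in its level was not tested. In WT4, the 502 tested genes of chromosome 12 stood 0.63 higher on the log2 scale than in the remaining WT libraries. This is the median of their differences, less the median difference of all tested genes. By the same measure, WT4 stood at 0.34 on chromosome 4, which holds *Tek*, and at −0.24 on chromosome 19, which holds *Vegfb*.

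**Figure D2:**
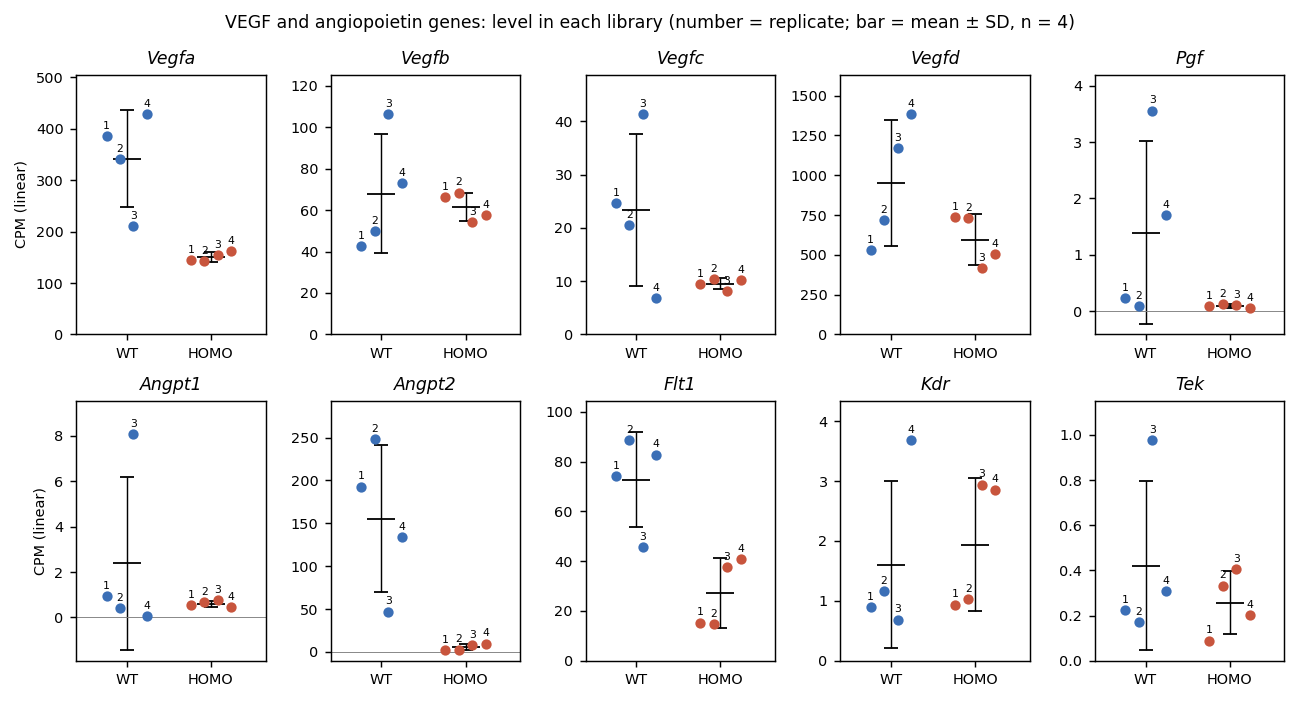
Level of each of the 10 genes in CPM on a linear scale (vertical axes) for WT (blue) and HOMO (red). Points are libraries with their replicate number, horizontal bars the mean and whiskers the SD over 4 libraries, and the genotypes are apart for *Vegfa*, *Angpt2* and *Flt1*, where the lowest WT library is WT3 at 210, 47.0 and 45.8 CPM.

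The difference was largest for *Angpt2* (ENSMUSG00000031465, chromosome 8 from 18690263 to 18741562, minus strand). Its counts were 3426, 5786, 819 and 3468 in WT1 to WT4 and 53, 88, 155 and 194 in HOMO1 to HOMO4, or 193, 248, 47.0 and 134 CPM in WT and 2.36, 2.66, 7.86 and 9.73 CPM in HOMO. The highest HOMO library was below the lowest WT library, and HOMO3 and HOMO4 were both above HOMO1 and HOMO2. The means of 156 ± 86.0 in WT and 5.65 ± 3.71 in HOMO (CPM ± SD, n = 4) gave a log2 fold change of −4.79 (SE 0.68, edgeR adjusted p = 0.00538). *Angpt2* lies within *Mcph1*, a gene of chromosome condensation on the opposite strand, and shares 0 exon bases with it. *Mcph1* was counted 234 to 676 times in WT and 293 to 408 times in HOMO.

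*Angpt1* (chromosome 15 from 42424723 to 42676977, minus strand), the activating ligand of Tek, was rare. Its counts were 17, 10, 141 and 2 in WT1 to WT4 and 12, 22, 15 and 9 in HOMO1 to HOMO4. WT3 alone was high, at 8.09 CPM, and WT2 and WT4 were below every HOMO library. The log2 fold change of −1.96 (SE 1.12, edgeR adjusted p = 0.261) did not pass, and it was 0.35 without WT3 (edgeR adjusted p = 0.749). Of its exon bases, 14.2% are shared with the antisense gene *Gm17473*, which had 0 counts. Per exon length, in RPKM (CPM per kilobase of union exon), the ratio of *Angpt2* to *Angpt1* was 284, 816, 8.19 and 2446 in WT1 to WT4 and 6.23, 5.64, 14.6 and 30.4 in HOMO1 to HOMO4. *Angpt2* was thus more abundant than *Angpt1* in all 8 libraries, and WT3, with its high *Angpt1*, fell within the range of HOMO. Named after its values were seen, another angiopoietin, *Angpt4*, had 7.72 ± 10.4 RPKM in WT and 2.32 ± 0.429 RPKM in HOMO (SD, n = 4). The means of *Angpt2* were 42.2 RPKM in WT and 1.53 RPKM in HOMO, so *Angpt2* was not the higher of these in HOMO.

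Among the receptors, *Flt1* (ENSMUSG00000029648, chromosome 5 from 147561604 to 147726011, minus strand) was measured at 74.0, 88.5, 45.8 and 82.8 CPM in WT1 to WT4 and at 15.3, 14.6, 37.7 and 40.9 CPM in HOMO1 to HOMO4. The HOMO libraries formed 2 pairs, and HOMO3 and HOMO4 came close to WT3 without reaching it. The means were 72.8 ± 18.9 in WT and 27.1 ± 14.1 in HOMO (CPM ± SD, n = 4), and the log2 fold change was −1.42 (SE 0.39, edgeR adjusted p = 0.0451). With the replicate number as a block it was −1.55 and lost its call (edgeR adjusted p = 0.0911). Counts per gene do not separate the membrane from the soluble form of *Flt1*.

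*Kdr* (chromosome 5 from 75932827 to 75978458, minus strand), the main signaling receptor for Vegfa, was rare, counted 16, 27, 12 and 95 times over WT1 to WT4 and 21, 34, 58 and 57 times over HOMO1 to HOMO4. WT4 was the highest library, and the genotypes overlapped. Its log2 fold change was 0.25 (SE 0.63, edgeR adjusted p = 0.817), and without WT4 it was 1.07 (edgeR adjusted p = 0.209). *Flt1* exceeded *Kdr* per exon length in every library. The RPKM ratio of *Flt1* to *Kdr* was 55.0, 51.1, 44.5 and 15.0 in WT1 to WT4 and between 8.58 and 11.0 in HOMO, without overlap.

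*Tek* (chromosome 4 from 94739289 to 94874976, plus strand), the angiopoietin receptor, had 4, 4, 17 and 8 counts over WT1 to WT4 and 2, 11, 8 and 4 over HOMO1 to HOMO4. The difference of −0.163 CPM, HOMO minus WT, had p = 0.6 in the exact two-sided permutation test, and the ranges overlapped.

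The receptors were set beside the markers of endothelial cells, which carry them in lung tissue. The summed level of 12 endothelial markers was 14.0 to 212 CPM in WT and 246 to 359 CPM in HOMO, most of it in every library from *Eng*, a TGF-beta coreceptor that fibroblasts also express. *Eng* was at 11.0, 13.4, 37.4 and 205 CPM in WT1 to WT4 and 337, 354, 240 and 241 CPM in HOMO1 to HOMO4 (edgeR adjusted p = 0.132). The defining genes *Pecam1* and *Cdh5* had at most 8 counts in any library, and *Sox17*, the lowest of the list, had a mean of 0.0202 CPM in HOMO and 0 in WT. Of the 12, 4 were tested and 0 called by edgeR, with 2 higher at an unadjusted p under 0.05, and DESeq2 called 1 higher and 1 lower. The 4 lymphatic endothelial markers summed to 0.542 to 1.61 CPM in WT and 0.152 to 0.551 CPM in HOMO, none passed edgeR's filter, DESeq2 tested 3 and called 0, *Prox1* led and *Ccl21a* had no count.

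The other marker lists gave the following levels. The 8 fibroblast markers summed to 9925 to 14029 CPM in WT and 12459 to 22319 CPM in HOMO, led by *Col1a1* and lowest for *Lum*, with *Pdgfrb* called lower (log2 fold change −0.97, edgeR adjusted p = 0.0251). The 8 pericyte and smooth muscle markers summed to 55.1 to 102 CPM in WT and 50.5 to 67.9 CPM in HOMO, led by *Notch3* and lowest for *Higd1b*, with *Rgs5* called lower (log2 fold change −5.20, edgeR adjusted p = 0.0486). Counts of *Rgs5* were 59, 90, 12 and 932 in WT1 to WT4, highest by far in WT4, and 2, 0, 13 and 10 in HOMO1 to HOMO4. In CPM, WT3 (0.689) nearly met HOMO3 (0.659). Of the 8 macrophage and leukocyte markers, led by *Lyz2* and lowest for *Itgam*, edgeR called 0, with 4 lower at an unadjusted p under 0.05. DESeq2 called 3 of them lower and 0 higher. Limma-voom called 1 higher and 0 lower, as did edgeR without WT3 and WT4. The 7 epithelial markers, led by *Scgb1a1* and lowest for *Nkx2-1*, summed to 0.225 to 1.55 CPM in WT and 1.60 to 14.5 CPM in HOMO, with *Cdh1* called higher (log2 fold change 2.77, edgeR adjusted p = 0.0462). The 5 mesothelial markers, led by *Upk3b* and lowest for *Msln*, summed to 23.1 to 231 CPM in WT and 104 to 150 CPM in HOMO, with *Wt1* called higher (log2 fold change 3.36, edgeR adjusted p = 0.0166). All 5 mesothelial markers were called higher by limma-voom and by edgeR without WT3 and WT4. The part of these cells in the levels of *Angpt2*, *Vegfa* and *Flt1* was not tested.

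Per exon length the 10 genes spanned more than 3 orders of magnitude in WT. *Vegfd* led with 394 ± 164 RPKM (SD, n = 4), followed by *Vegfa* with 79.7 ± 22.1 RPKM, *Vegfb* with 42.3 ± 17.8 RPKM and *Angpt2* with 42.2 ± 23.3 RPKM. *Vegfc* (9.53 RPKM) and *Flt1* (5.39 RPKM) came next, and *Pgf*, *Angpt1*, *Kdr* and *Tek* lay between 0.480 and 0.0892 RPKM. In WT, the ranges of neighbours in this order were separate only after *Vegfd* and after *Flt1*. In HOMO, *Vegfd* again led with 248 ± 67.1 RPKM (SD, n = 4), and *Vegfb* (38.4 RPKM) and *Vegfa* (35.2 RPKM) had ranges that met. *Angpt2* stood behind *Vegfc* (3.91 RPKM) and *Flt1* (2.01 RPKM) with 1.53 RPKM, and its range met that of *Flt1*, which was the higher in each of the 4 libraries. The 4 lowest genes were the same in both genotypes.

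The 5 VEGF ligands together summed to 346, 417, 620 and 723 RPKM in WT1 to WT4 and 384, 383, 245 and 287 RPKM in HOMO1 to HOMO4, with overlap between the genotypes. *Vegfd* made up 63.4 to 79.4% of this sum in WT and 70.2 to 79.5% in HOMO. The share of *Vegfa* was 26.0, 19.1, 7.91 and 13.8% in WT1 to WT4 and 8.74, 8.70, 14.7 and 13.1% in HOMO1 to HOMO4. WT3 had the lowest share of all libraries, and the shares of the genotypes overlapped. The share of *Vegfb* was 6.29 to 10.7% in WT and 10.7 to 13.8% in HOMO.

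**Figure D3:**
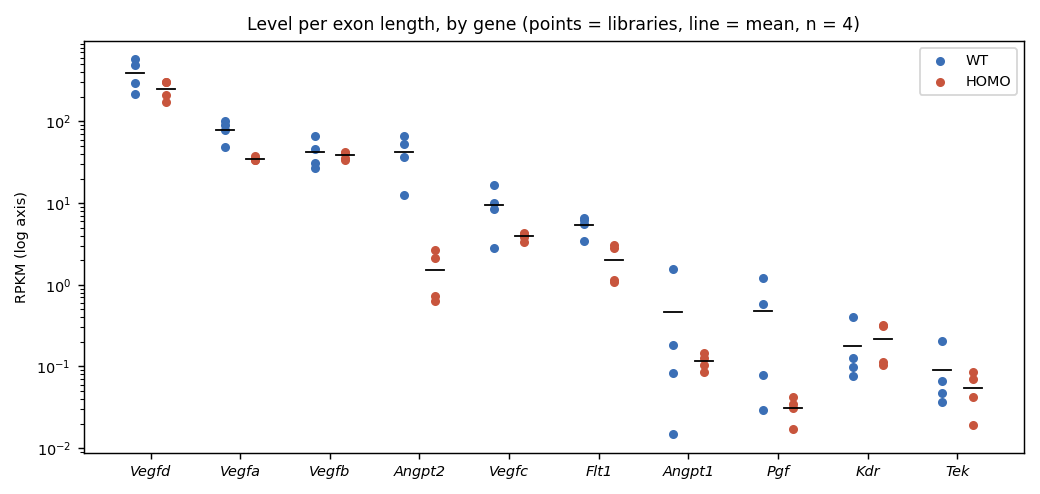
Level of the 10 genes per exon length in RPKM on a log axis, with genes ordered by their mean over all libraries. Points are libraries (WT blue, HOMO red) and lines the means of 4 libraries, with *Vegfd* highest at 394 RPKM in WT and 248 RPKM in HOMO, and *Angpt2* moving from 42.2 to 1.53 RPKM.

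Each gene was also set beside the other tested genes of its chromosome, as a description. On chromosome 8, which holds *Angpt2* and *Vegfc*, the 790 other tested genes had a median log2 fold change of 0.38, that is, higher in HOMO. Relative to it, *Angpt2* stood at −5.17 and *Vegfc* at −1.66. The medians of chromosomes 17 (0.06) and 5 (−0.08), which hold *Vegfa* and *Flt1*, were near 0. *Angpt2* had a lower value than all but 0.127% of the other genes of its chromosome, *Vegfa* all but 3.52% and *Flt1* all but 5.35%.

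**Figure D4:**
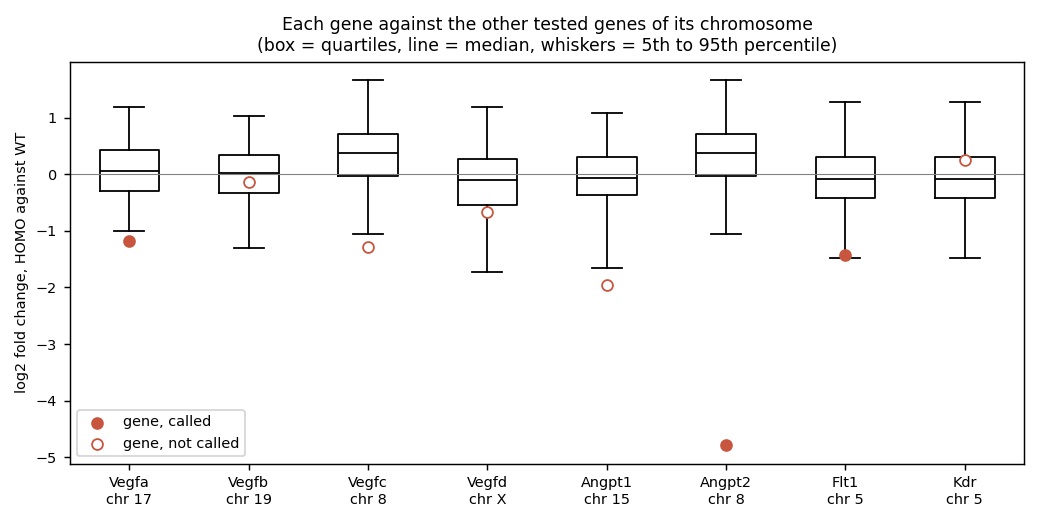
Log2 fold change of HOMO against WT (vertical axis) of the 8 tested genes (circles, filled where called) beside the other tested genes of the same chromosome (boxes with quartiles and median, whiskers from the 5th to the 95th percentile). On chromosome 8 the median is 0.38 and *Angpt2* lies at −4.79, outside the whiskers, while *Flt1* at −1.42 is at the lower whisker of chromosome 5.

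The genes whose log2 CPM over the 8 libraries was most like that of each called member were taken by Pearson's r, as a description over libraries that share their genotypes and near-identical pairs. For *Vegfa* these were *Dlc1* (r = 0.993) and the cytokine *Il6* (r = 0.989). For *Angpt2* they were the adaptor *Crk* and the lipid kinase *Pi4k2b*, both with r = 0.995. For *Flt1* they were the aldo-keto reductase *Akr1b10* (r = 0.992) and *Carns1*, which makes carnosine (r = 0.990).

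The wider pathway was followed in 7 lists of 108 genes, of which 102 were tested. EdgeR called 7 of them higher and 12 lower in HOMO, which is 18.6% of the tested genes against 12.1% over all genes, and 39 had an unadjusted p under 0.05, a level that 32.3% of all tested genes reached. Their median log2 fold change was −0.12. Of these 19 calls, 9 were kept without HOMO1 and 9 without HOMO2, and with the near-identical libraries summed edgeR called 0, with 21 at an unadjusted p under 0.05. Over all genes, edgeR on these sums also called 0, with 2057 of 16130 at an unadjusted p under 0.05. DESeq2 on these sums called 14 pathway genes, 12 of them among the 19, and 719 of 16716 over all genes. Without WT3 and WT4, edgeR called 36, with 18 among the 19, and 3117 of 14912 over all genes.

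No coreceptor or related receptor was called by edgeR among 5 tested of 6, with 1 lower at an unadjusted p under 0.05. DESeq2 called 1 lower, and limma-voom 2 higher and 1 lower. The most abundant were *Svep1*, an extracellular matrix protein needed for lymphatic remodelling, with 529 ± 305 in WT and 730 ± 148 in HOMO (CPM ± SD, n = 4), and *Nrp1*, a coreceptor of Vegfa, with 201 ± 83.4 and 162 ± 8.25 CPM. Named after their values were seen, *Flt4*, the receptor of Vegfc and Vegfd, had a log2 fold change of 0.52 (edgeR adjusted p = 0.548), and the coreceptor *Nrp2* one of −1.44 (edgeR adjusted p = 0.116).

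Of the 5 genes that mature Vegfc and Vegfd, all tested, 1 was higher and 0 were lower by edgeR and DESeq2, and limma-voom called 1 lower. *Adamts3*, the protease that activates Vegfc, rose from 1.64 ± 1.05 to 11.4 ± 1.82 CPM (± SD, n = 4, log2 fold change 2.80, SE 0.67, edgeR adjusted p = 0.0310). Its counts in WT1 to WT4 were 40, 56, 31 and 3, and WT4 stood apart from the others. Its cofactor *Ccbe1* and the convertase *Furin* were not called (log2 fold change −0.34 and −0.54, edgeR adjusted p = 0.487 and 0.0576).

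Among 7 tested of 8 angiopoietin-like and other angiopoietin genes, *Angptl2*, a secreted factor of inflammation, fell from 107 ± 70.5 to 32.5 ± 1.77 CPM (± SD, n = 4, log2 fold change −1.71, edgeR adjusted p = 0.0289). It was the one called, and 0 were higher by edgeR or DESeq2, although limma-voom called 4 higher. *Angptl4*, an inhibitor of lipoprotein lipase, did not pass (log2 fold change −0.86, edgeR adjusted p = 0.259).

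Of 48 tested genes of VEGF receptor signal transduction, edgeR called 4 higher and 4 lower, with a median log2 fold change of −0.08. The balance turned with the fit, to 5 higher and 9 lower with DESeq2, 8 higher and 4 lower with limma-voom, and 7 higher and 3 lower with edgeR without WT3 and WT4. The adaptor *Gab1* rose from 42.1 ± 3.87 to 128 ± 19.6 CPM (± SD, n = 4, log2 fold change 1.60, edgeR adjusted p = 0.00111). The p38 kinase *Mapk12* (log2 fold change 1.23, edgeR adjusted p = 0.00589) and the phosphoinositide 3-kinase subunit *Pik3cb* (0.89, edgeR adjusted p = 0.0194) were higher as well. The GTPase *Hras* fell by 1.38 on the log2 scale (edgeR adjusted p = 0.00742), the kinase ERK1, *Mapk3*, by 0.79 (edgeR adjusted p = 0.00855) and the focal adhesion kinase *Ptk2* by 0.71 (edgeR adjusted p = 0.0261).

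In the list of oxygen sensing and regulators of *Vegfa*, all 15 genes were tested and edgeR called 1 in each direction. DESeq2 called 2 higher and 1 lower, limma-voom 4 higher and 1 lower, and edgeR without WT3 and WT4 5 higher and 1 lower. *Arnt*, the constant subunit of hypoxia-inducible factors (HIF), rose by a log2 fold change of 0.69 (edgeR adjusted p = 0.0221), from 60.5 ± 5.80 to 97.4 ± 15.6 CPM (± SD, n = 4). *Egln3*, a prolyl hydroxylase that is itself induced by HIF, fell by 3.11 on the log2 scale (edgeR adjusted p = 0.0157). Its level was 2.59 to 14.7 CPM in WT, highest in WT3 and WT4, and 0.696 to 1.01 CPM in HOMO.

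All 12 HIF target genes were tested, and edgeR called 0 higher and 3 lower, with 8 lower and 0 higher at an unadjusted p under 0.05, reached by 32.3% of all tested genes in either direction. DESeq2 called 5 lower and 0 higher, limma-voom 4 lower and 1 higher, and edgeR without WT3 and WT4 4 lower and 0 higher. The log2 fold change was negative in 11, and the median was −0.99. The vasodilator peptide *Adm* (log2 fold change −2.92, edgeR adjusted p = 0.00789) and the glycolytic enzymes *Aldoa* (−1.37, edgeR adjusted p = 0.0189) and *Pgk1* (−1.18, edgeR adjusted p = 0.0297) fell.

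Of 10 tested genes listed as secreted inhibitors of angiogenesis, edgeR called 1 higher and 3 lower, as did DESeq2. The list also holds *Vash2*, a vasohibin that promotes vessel growth, which edgeR did not call (log2 fold change −0.64, edgeR adjusted p = 0.242). Limma-voom called 4 higher and 4 lower, and edgeR without WT3 and WT4 3 higher and 4 lower. *Sema3a*, which competes with Vegfa for neuropilin, rose from 27.5 ± 4.23 to 101 ± 8.48 CPM (± SD, n = 4, log2 fold change 1.87, edgeR adjusted p = 6.28e-04). The thrombospondins *Thbs1* (log2 fold change −2.83, edgeR adjusted p = 0.00707) and *Thbs2* (−1.39, edgeR adjusted p = 0.00855) fell, as did *Col18a1*, the precursor of endostatin (−1.58, edgeR adjusted p = 0.00769).

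**Figure D5:**
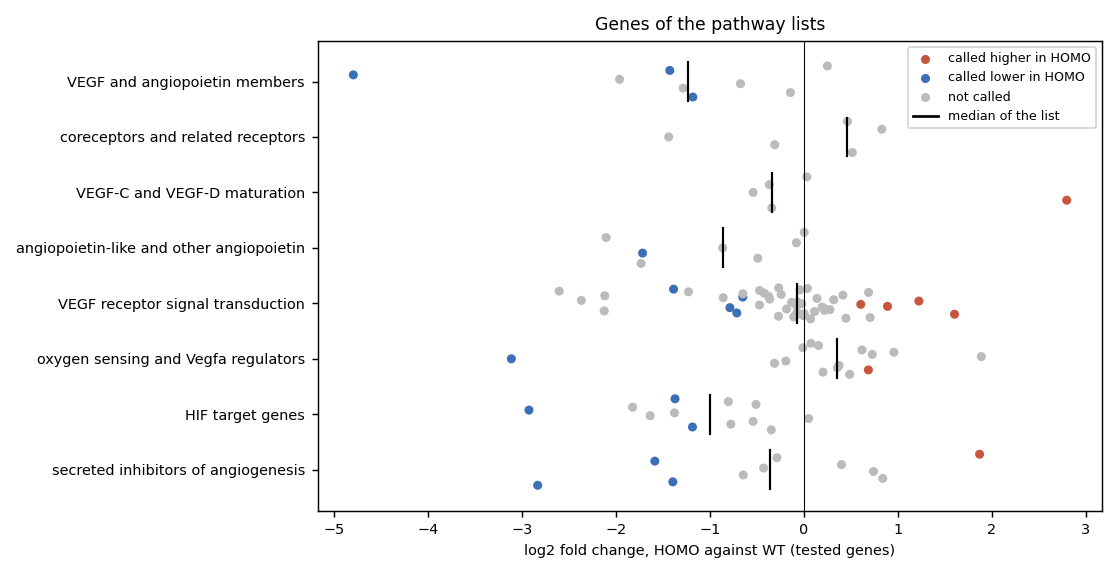
Log2 fold change of HOMO against WT (horizontal axis) of every tested gene in the member list and the 7 pathway lists. Points are genes, red where called higher in HOMO, blue where called lower and gray otherwise, and black lines mark each list's median, which is −1.23 for the members, −0.99 for HIF targets and 0.36 for oxygen sensing.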

How the data were processed

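RNAseq libraries of WT and HOMO pFBs were prepared by the submitters with a NEBNext Ultra kit. The authors used fastp for trimming, STAR for alignment to mm10 and featureCounts for counting, and deposited raw counts per gene symbol with no normalization. Tool versions and the strand setting are not given in the sources used here. The deposited counts are labelled "outlierout", and what was removed is not stated. All 8 libraries were used, and 0 other columns held per-sample values. The human transgene was not analysed here.

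Of 54532 entries, 53877 were matched by symbol to GENCODE M21 (GRCm38) for positions and union exon length. Symbols on 2 entries (*Aldoa*, *Ccl21a*) were taken from the entry with more counts. The software was edgeR 4.0.16, DESeq2 1.42.0 and limma 3.58.1 in R 4.3.3, and Python 3.11.15, numpy 2.4.6, pandas 2.3.3 and matplotlib 3.10.9. The deposited counts were compared by edgeR's quasi-likelihood F test after TMM normalization and filterByExpr by genotype, without covariates. DESeq2 and limma-voom were alternatives. Every limma-voom fit gave each library its own estimated weight, so its results differ from edgeR's by weighting as well as by tool. The SE is the size of the log2 fold change over the square root of F. CPM are relative to TMM-scaled library sizes, with a prior count of 2 on the log2 scale. Fold changes are fitted values. The fits were tested on simulated independent libraries, which lacked near-identical pairs, so their error rate with such pairs was not tested.

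The members and gene lists were chosen with earlier results of these data known. All members were named. From each pathway list, the called genes with up to 3 largest changes in each direction were named and, where fewer than 2 were called, the 2 of highest mean CPM. From each marker list the highest, the lowest and the called genes were named. For each called member, the 2 genes with the highest r were named, and also genes that overlap a member. Alternatives were other normalizations (RLE, upper quartile) and tools, no filter, CPM above 1 in 4 or more libraries, robust dispersion, the replicate number as a block, no fold change threshold, leaving out each library, and near-identical libraries summed. Leaving out WT3 with WT4, and DESeq2 on the summed libraries, were chosen after seeing the data.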

Additional observations from a re-analysis of the deposited data

Results flagged for a closer look

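In 34 named genes, each genotype's 4 libraries were examined for 1 library far from the others by Dixon's criterion. Of 68 groups, 2 stood out, where chance gives about 1 in 20 for independent libraries. Near-identical pairs break that condition, and in HOMO, made of 2 such pairs, 1 library can hardly stand apart. *Adamts3* in WT4 was at −2.28 log2 CPM, where the remaining WT libraries lay between 0.90 and 1.32. *Adm* in WT3 was at 9.41 log2 CPM, where the remaining WT libraries lay between 7.70 and 7.86. None of the 10 VEGF and angiopoietin genes was among them.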

How the results depend on the processing

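Over 20 alternatives, *Angpt2*, *Vegfa*, *Flt1*, *Vegfc* and *Vegfd* kept a negative log2 fold change. The number of members called, 3 with edgeR, was 5 with DESeq2 (*Vegfc* and *Pgf* added), 4 with limma-voom and 4 without WT3 and WT4 (*Vegfc* added in both), between 1 and 3 with 1 library left out and 0 with near-identical libraries summed. The 19 calls in the pathway lists became 29 with DESeq2, 41 with limma-voom, between 9 and 26 with 1 library left out, 36 without WT3 and WT4, and 0 with near-identical libraries summed. Of these 19, 9 remained without HOMO1 and 9 without HOMO2. Over all genes, the 1716 calls became 2913 with DESeq2, 3573 with limma-voom, 947 with the replicate block and 3117 without WT3 and WT4. They were between 507 and 2192 with 1 library left out and 0 with libraries summed (2057 at an unadjusted p under 0.05). DESeq2 on the summed libraries called 719. Signs changed for *Vegfb* (log2 fold change 0.28 with limma-voom, 0.41 without WT3 and WT4, −0.31 to 0.16 with 1 library left out), *Angpt1* (0.22 with limma-voom, −2.37 to 0.35 with 1 left out), *Kdr* (−0.017 to 1.07 with 1 left out) and *Tek* (−0.246 to 0.0216 CPM with 1 left out). Leaving out WT2 brought *Pgf* to the smallest p its exact permutation test can give (0.0286). Summing the near-identical libraries leaves 3 WT and 2 HOMO units, and why edgeR then called 0 genes was not tested. Same-numbered libraries did not deviate together (r between −0.124 and 0.014). With near-identical libraries in both genotypes, these correlations cannot tell whether the numbers pair the samples. With the replicate block, 2 members (*Vegfa*, *Angpt2*) and 16 pathway genes were called. *Pgf*, *Tek*, *Angpt1* and *Kdr* had the fewest counts.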

Other observations

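Of the epithelial markers, the club cell gene *Scgb1a1* was counted 110 times in HOMO2 and 130 times in HOMO3, and the alveolar type 2 gene *Sftpc* 48 and 99 times, against at most 3 counts of either gene in the other 6 libraries. HOMO2 and HOMO3 belong to different near-identical pairs. *Epcam*, another epithelial marker, was counted 45 times in HOMO4 and at most 1 time in any other library.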
